A study of Homo sapiens with 18 samples.

Results

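The zinc finger (ZNF) genes of human chromosome 19 were taken as the protein-coding genes of that chromosome whose GENCODE symbol is ZNF followed by a digit, 249 genes in all. Splicing of 207 of them was measured, through 2690 of the 233650 introns in the whole series. Of these, 1907 introns in 401 clusters had a PSI that averaged 1% to 99% across the libraries and were tested, among 152722 tested introns of all genes. PSI is the percentage of the reads spanning an intron cluster, a group of introns that share splice sites, that removed a given intron. It compares the introns of 1 cluster with each other and measures no expression level.

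The cells were SHEP.tet21n, a human neuroblastoma line in which doxycycline (Dox) switches off a MYCN transgene, so that every group shares the same tet-regulated MYCN construct and the same line. MYCN was repressed with 2 µg/mL Dox (MYCN-) or left on with vehicle (MYCN+). The labels give a Dox interval of 72 h. All MYCN- libraries had Dox and no MYCN+ library did, so effects of MYCN and of Dox itself cannot be told apart. Differences with MYCN below are differences between these libraries. The cells also received a control siRNA (SNRPD3+) or SNRPD3 siRNA #1 or #2 (SNRPD3-). SNRPD3 is a core protein of the spliceosomal Sm ring. The 6 groups, MYCN-/SNRPD3+ (wildtype), MYCN-/SNRPD3- with siRNA #1 or #2, MYCN+/SNRPD3+, and MYCN+/SNRPD3- with siRNA #1 or #2, held 3 replicate libraries each, 18 in all. The study calls its replicates independent but the labels do not describe separate cultures, so the p-values measure the spread between these samples. Reads per intron are not given, so depth is unknown and a single PSI has no interval, and since PSI carries no levels, the repression of MYCN, the loss of SNRPD3 and the markers of the line could not be checked here.

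Most ZNF genes of chromosome 19 encode KRAB zinc finger proteins. An array of C2H2 zinc fingers binds DNA, in many members at transposable elements, and the KRAB domain near the start of the protein recruits TRIM28 (KAP1), which brings the histone methyltransferase SETDB1 and HP1 proteins and so silences chromatin. The genes lie in large tandem clusters and share one layout, in which short upstream exons hold the start codon and the KRAB box and one long last exon holds the fingers. Skipping of the KRAB exon or of the exon with the start codon can leave a protein without its repressor domain, or none.

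The 249 genes showed this layout closely when their canonical transcripts (GENCODE release 44) were translated. Fingers were found in 247 genes, with a median of 12 and a range from 1 to 36, and in 242 of them every finger lay in 1 exon. Counted separately, the exon with the most fingers was the last exon in 242 genes. A match to the first part of the KRAB box was found in 202 genes, in 200 of them upstream of the finger exon, and in 198 the start codon lay in an exon before the KRAB exon. The KRAB exon had 127 nucleotides in 187 of the 202 genes, and its length kept the reading frame in 0. Leaving it out therefore shifts the frame of the finger exon unless another splice site is used with it.

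The KRAB exons with the largest differences in skipping on SNRPD3 knockdown (described with their values further on) are printed to show how alike this exon is between genes. They are reference sequence of hg38, 5′ to 3′ on the coding strand, and capitals mark the bases of the KRAB match.
ZNF765 exon 3 (chr19:53402065-53402191, plus strand): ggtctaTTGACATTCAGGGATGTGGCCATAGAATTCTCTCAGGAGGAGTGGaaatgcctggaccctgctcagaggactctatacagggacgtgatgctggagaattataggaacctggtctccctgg
ZNF442 exon 4 (chr19:12352988-12353114, minus strand): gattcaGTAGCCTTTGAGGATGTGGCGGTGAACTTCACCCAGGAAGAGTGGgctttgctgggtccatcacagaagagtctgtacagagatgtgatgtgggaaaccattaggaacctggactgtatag
ZNF749 exon 2 (chr19:57441885-57442011, plus strand): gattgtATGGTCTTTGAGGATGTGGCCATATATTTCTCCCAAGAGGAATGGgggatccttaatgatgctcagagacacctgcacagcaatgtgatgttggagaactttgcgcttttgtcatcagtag

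The exons with the start codon vary more in length. The coding bases of 2 of those whose skipping the results below turn on are printed, with the start codon in capitals.
ZNF227 exon 3 (chr19:44217793-44217852, plus strand): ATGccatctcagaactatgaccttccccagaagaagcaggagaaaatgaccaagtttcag
ZNF473 exon 2 (chr19:50031083-50031091, plus strand): ATGgctgag

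In their splicing background the ZNF introns differed from the table as a whole in some respects and not in others. Of the 1907 introns 67.8% were annotated, as were 67.6% of all tested introns. The latter include introns with no annotated end, which the ZNF set cannot hold. Among sets that need an annotated end, the share was 76.9% in other genes of chromosome 19 and 67.7% in ZNF genes on other chromosomes. Minor introns were more common, with a mean PSI under 10% in 54.0% against 42.0%. The median SD between replicates of a group was 3.66 percentage points, against 3.11 for all tested introns and 3.70 for other genes of chromosome 19. An exactly repeated PSI, which may stand for libraries without reads there, was found in 13.8% of the ZNF introns and 17.3% of all. A gene had a median of 8 tested introns and at most 31, in ZNF333. Splice sites were shared by 65 introns between at least 2 ZNF genes and by 314 with a gene outside the set. The 783 introns outside the PSI limits were mostly minor, 773 of them under 1%. At the lower limit an intron of ZNF823 (mean PSI 1.002%) was just inside and an intron of ZNF225 (0.9996%) just outside, and at the upper limit an intron of ZNF45 was inside at 98.8% and an intron of ZNF576 outside at 99.0%.

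Few ZNF introns differed between MYCN+ and MYCN- libraries, at a lower share than over all tested introns. With all libraries (9 MYCN+ against 9 MYCN-), 14 introns of 12 genes passed an adjusted p of 0.05 by limma, 0.734% of the 1907, where 1.23% of all tested introns passed. PSI was higher with MYCN in 8 introns (0.42%, against 0.681% of all) and lower in 6 (0.315%, against 0.547%). At an unadjusted p under 0.05 the shares were 11.3% and 11.7%. The difference in share was not tested. Leaving out 1 library at a time gave 7 to 17 introns, with 7 without MYCN+/SNRPD3+ replicate 1, 8 without wildtype replicate 3 and 9 without MYCN-/SNRPD3- siRNA #1 replicate 2. Along the chromosome 6 of the 14 introns lay beyond 50 Mb among 692 tested introns, and 5 between 35 and 45 Mb among 537. Another 2 lay between 19 and 25 Mb among 226, and 1 between 25 and 35 Mb among 39. There were 0 in the first 19 Mb among 401 introns of 43 genes, and 0 between 45 and 50 Mb among 12. Shares of all tested introns by position were not taken, so no regional difference is read from these counts.

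**Figure D1:**
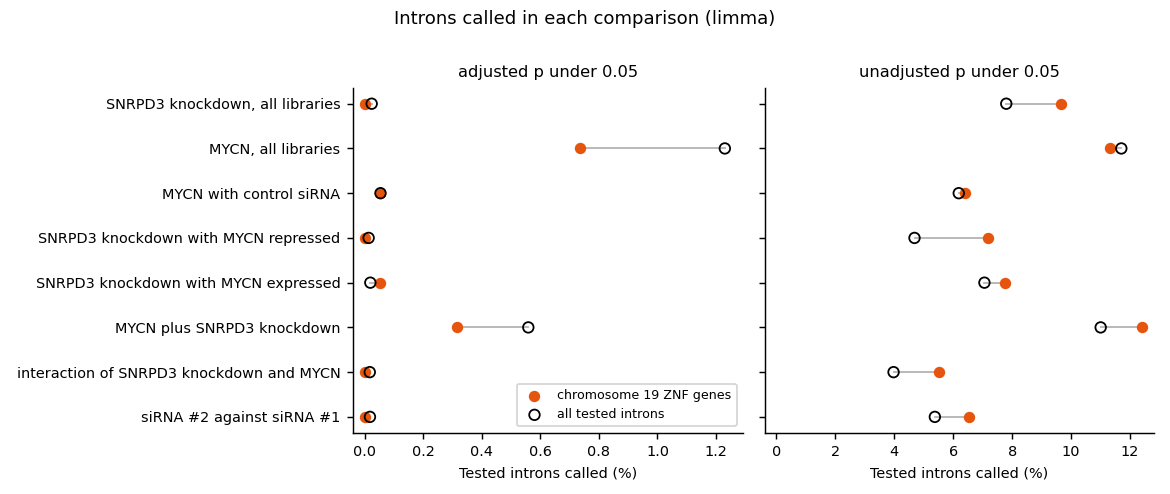
Percentage of tested introns called by limma in each of the 8 comparisons, at an adjusted p under 0.05 (left) and at an unadjusted p under 0.05 (right). Filled points are the 1907 introns of chromosome 19 ZNF genes and open points all 152722 tested introns. For MYCN over all libraries the ZNF genes sit lower at the adjusted threshold (0.734% against 1.23%), and for SNRPD3 knockdown over all libraries they sit higher at the unadjusted one (9.65% against 7.8%).

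ZNF160, a KRAB zinc finger gene with 20 fingers, held the annotated intron with the largest called difference that remained in every alternative fit and without any 1 library. The intron joins exon 3, which holds the start codon, to the KRAB exon 4 (chr19:53075183-53086262, minus strand). Its PSI was 44.5, 42.5 and 48.6% in wildtype libraries, 58.6, 60.9 and 65.5% in MYCN-/SNRPD3- siRNA #1 and 40.2, 46.6 and 64.9% with siRNA #2. With MYCN on it was 69.6, 71.7 and 71.0% with control siRNA, 77.3, 87.2 and 83.7% with siRNA #1 and 65.9, 76.4 and 67.1% with siRNA #2. The 9 MYCN+ libraries (65.9 to 87.2%) lay above the 9 MYCN- libraries (40.2 to 65.5%) without overlap. The mean difference was 22.0 percentage points, or 1.41 ± 0.19 (SE) log2 odds (adjusted p = 0.00308, limma). For MYCN with control siRNA alone the difference was 25.6 points and missed the threshold (adjusted p = 0.225, limma).

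An intron of ZNF160 that lost share enters the same KRAB exon from a donor between exons 3 and 4. Its fall was smaller than the rise of the intron from exon 3, and the other introns of the cluster were not described. The printed donors show 3 exon bases in capitals and 6 intron bases.
ZNF160 exon 3 donor: CAGgtaaag
ZNF160 donor between exons 3 and 4: CAGgtggat
The intron from the second donor (chr19:53075183-53085163) had a PSI of 20.1 to 24.9% in wildtype, 12.9 to 17.6% in MYCN+/SNRPD3+ and 2.96 to 9.84% in MYCN+/SNRPD3- siRNA #1. Over all libraries it was lower with MYCN by 0.98 ± 0.22 log2 odds (adjusted p = 0.0493, limma), a call that was lost in 15 of the 18 fits without 1 library, with an adjusted p of up to 0.0974 over all alternatives.

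ZNF738 showed a switch between acceptors downstream of exon 4, which follows the KRAB exon. Both acceptors lie between exons 4 and 5 of the canonical transcript, on the plus strand, and are printed with 20 intron bases and 3 exon bases in capitals, because the farther one follows an unbroken run of T and the nearer one does not.
ZNF738 nearer acceptor (exon starts at chr19:21377389): ttgttttatttttattacagAAA
ZNF738 farther acceptor (exon starts at chr19:21378629): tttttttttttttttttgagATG
The intron to the nearer acceptor fell with MYCN. Its PSI was 24.5, 29.2 and 26.1% in wildtype, 30.0, 35.2 and 36.9% in MYCN-/SNRPD3- siRNA #1 and 26.7, 31.1 and 27.2% with siRNA #2, against 18.2, 15.9 and 16.1% in MYCN+/SNRPD3+, 19.1, 14.7 and 6.57% in MYCN+/SNRPD3- siRNA #1 and 21, 18.6 and 22.9% with siRNA #2. The MYCN- and MYCN+ libraries did not overlap, and the difference was -1.05 ± 0.18 log2 odds (-12.7 points, adjusted p = 0.0114, limma), called also without any 1 library. The intron to the farther acceptor rose in mirror image, from 48.7 to 54.0% in the MYCN- libraries to 58.8 to 83.0% in the MYCN+ libraries (0.89 ± 0.18 log2 odds, 14.6 points, adjusted p = 0.0295, limma). That call was lost in 13 of the 18 fits without 1 library, with an adjusted p of up to 0.0633 over all alternatives. SNRPD3 knockdown moved neither intron by more than its error (0.13 ± 0.19 and 0.08 ± 0.19 log2 odds, adjusted p = 0.961 and 0.986, limma).

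ZNF836 and ZNF383 were called in the same comparison and without any 1 library. ZNF836 has 24 fingers, and its intron from the KRAB exon 4 to exon 5 (chr19:52157540-52160465, minus strand) shares its sites with an overlapping gene. It is a minor intron of its cluster, at 9.69 to 15.8% in wildtype, 10.5 to 12% and 3.44 to 6.94% in MYCN-/SNRPD3- siRNA #1 and #2, and 1.49 to 6.62% in the 9 MYCN+ libraries. MYCN- and MYCN+ libraries overlapped, since those with MYCN off and siRNA #2 were as low as those with MYCN on. The difference over all libraries was -1.07 ± 0.18 log2 odds (-5.66 points, adjusted p = 0.0127, limma). In ZNF383 an unannotated donor joined to the last exon (chr19:37237780-37242469, plus strand) stood at 0.0353 to 0.0952% in all MYCN- libraries, close to the lowest values of the table. The intron reached the mean PSI of 1% needed for testing only through the MYCN+ libraries, those in which it was called higher. With MYCN on it took 8.99, 5.64 and 5.83% with control siRNA, 6.76, 0.0377 and 2.40% with siRNA #1 and 4.70, 4.83 and 6.71% with siRNA #2. The difference was 2.39 ± 0.29 log2 odds (5.04 points, adjusted p = 0.00157, limma), although 1 of the 9 MYCN+ libraries was as low as the MYCN- libraries. On this scale the offset of 0.01 compresses changes of such small PSI.

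Of the remaining calls, that of ZNF302 is described with the next comparison. ZNF614 had the largest difference of all, at an unannotated intron (chr19:52013252-52017096, minus strand) whose PSI ran from 28.6 to 98.3% in MYCN- and from 0.397 to 42.6% in MYCN+ libraries, with a difference of -4.66 ± 0.81 log2 odds (-46.3 points, adjusted p = 0.0139, limma). Its 18 libraries gave 17 different values, with 97.0% in 2 libraries. Whether such a repeated value rests on reads could not be checked. In ZNF546 the intron that skips exon 3, which holds the start codon, rose with MYCN (3.72 ± 0.80 log2 odds, adjusted p = 0.0415, limma), but the MYCN- libraries ran from 0.312 to 43.8% around a median of 0.571% and the call was lost in 15 of the 18 fits without 1 library. ZNF570, ZNF211, ZNF221, ZNF808 and an intron of ZNF875 upstream of its canonical exon 2 (chr19:37324265-37328579), reported here to account for every call and not by the rule for named genes, differed by 10.0, 9.57, 7.76, -5.57 and 1.14 points. Of these the ZNF875 call held without any 1 library, but not with an offset of 0.001 or on untransformed PSI (adjusted p up to 0.140, limma). Those of ZNF570, ZNF211, ZNF221 and ZNF808 held in 5, 3, 7 and 14 of the 18 fits without 1 library. In the other alternatives these 4 calls held in 6 of 9, 7 of 9, 9 of 9 and 5 of 7.

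With control siRNA alone (3 MYCN+/SNRPD3+ libraries against 3 wildtype libraries), 1 ZNF intron was called (0.0524%, against 0.0543% of all tested introns), and 6.4% of ZNF introns had an unadjusted p under 0.05, against 6.19% of all. The intron belongs to ZNF302, a gene with 7 fingers whose KRAB box lies in exon 3. It joins a donor downstream of exon 2 to the KRAB exon (chr19:34679959-34682777, plus strand), in competition with the donor of exon 2, which holds the start codon.
ZNF302 exon 2 donor: CAGgtaagt
ZNF302 donor downstream of exon 2: GATgtaagt
From the downstream donor PSI was 9.80, 6.52 and 3.81% in wildtype but 0.0553, 0.0787 and 0.0799% in MYCN+/SNRPD3+. It was 6.77, 6.30 and 14.7% in MYCN-/SNRPD3- siRNA #1, 4.06, 5.82 and 6.73% with siRNA #2, 3.37, 2.67 and 4.50% in MYCN+/SNRPD3- siRNA #1 and 4.80, 10.4 and 5.04% with siRNA #2. The minor donor was thus near the bottom of the scale in the 3 MYCN+/SNRPD3+ libraries and in use in the other 15. The main intron from exon 2 was at a mean of 98.9% in MYCN+/SNRPD3+ and between 87.3 and 90.9% in the other groups.

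Over all libraries this ZNF302 intron was lower with MYCN by 1.29 ± 0.23 log2 odds (-3.73 points, adjusted p = 0.0145, limma), a call that held without any 1 library but not with an offset of 0.05 (adjusted p up to 0.251 over all alternatives) or on untransformed PSI. The MYCN difference with control siRNA was -2.87 ± 0.39 log2 odds (-6.64 points, adjusted p = 0.0162, limma). SNRPD3 knockdown with MYCN expressed raised it by 2.49 ± 0.34 log2 odds (5.06 points, adjusted p = 0.0326, limma), the only ZNF intron called in that comparison (0.0524%, against 0.0196% of all). Both comparisons share the MYCN+/SNRPD3+ libraries, and 3 libraries near 0 decide both. The knockdown difference with MYCN repressed was 0.12 ± 0.34 log2 odds (adjusted p = 1, limma), yet the difference between the knockdown effects was not called (2.38 ± 0.48 log2 odds, adjusted p = 0.470, limma). The MYCN call held in 13 of 18 fits without 1 library and the knockdown call in 10 of 18. Each was lost without any 1 of the 3 MYCN+/SNRPD3+ libraries, with an offset of 0.05 and on untransformed PSI. The MYCN call was also lost without wildtype replicate 1 or 2 and with only the groups compared in the fit, and the adjusted p reached 0.623 over all alternatives. The knockdown call was also lost without wildtype replicate 2, MYCN-/SNRPD3- siRNA #1 replicate 1, MYCN-/SNRPD3- siRNA #2 replicate 2 or MYCN+/SNRPD3- siRNA #1 replicate 1 or 3, with the replicate block, with a mean PSI of 0.05 to 0.95 and with trend and robust options (adjusted p up to 0.622).

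**Figure D2:**
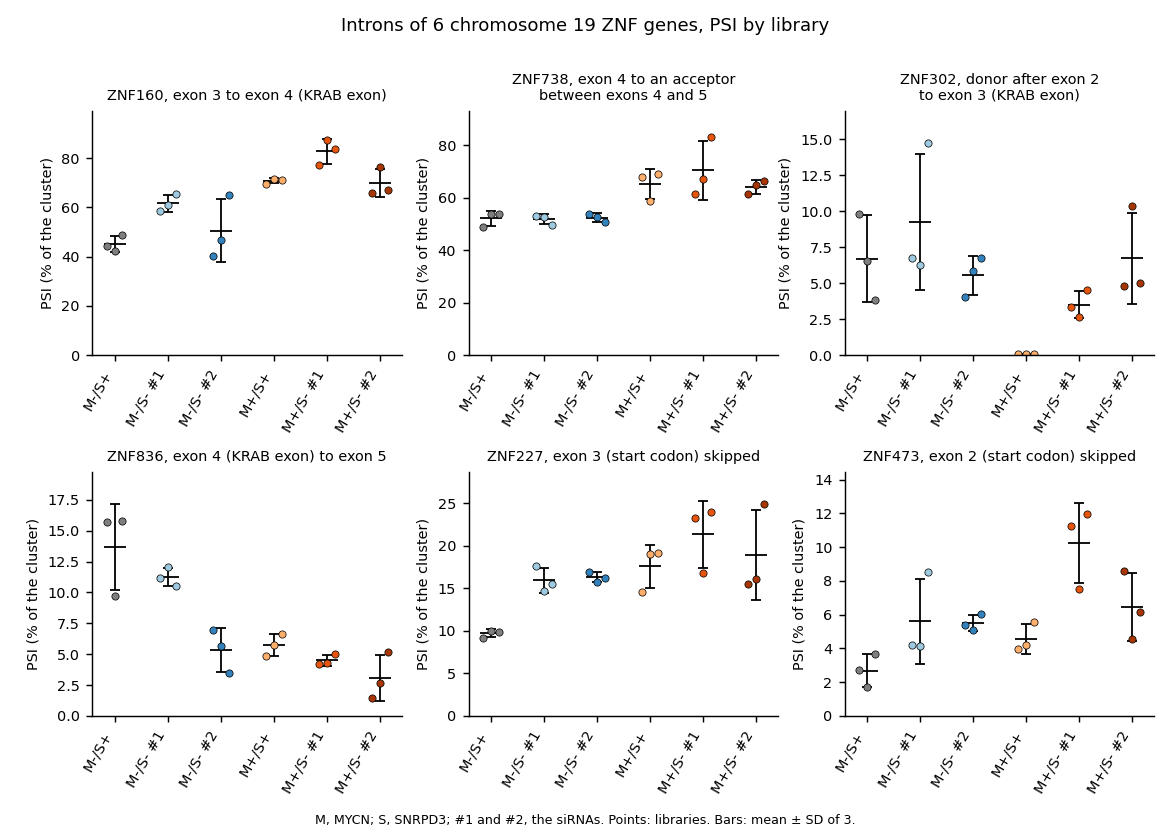
PSI, as a percentage of the cluster, of introns in 6 ZNF genes by library (points) with the mean ± SD of the 3 libraries of each group (bars), each panel with its own axis from 0. ZNF160 and ZNF738 are higher in every MYCN+ library than in any MYCN- library, ZNF302 is near 0 in the 3 MYCN+/SNRPD3+ libraries, and the introns that skip the start codon exons of ZNF227 and ZNF473 are lowest in wildtype.

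MYCN+/SNRPD3- cells were compared with the wildtype to ask for the joint effect. By limma, 6 ZNF introns of 6 genes were called (0.315%, against 0.559% of all), 3 higher (0.157%, against 0.35%) and 3 lower (0.157%, against 0.209%), and 12.4% had an unadjusted p under 0.05, against 11% of all. The count depends on single libraries. It was 0 without wildtype replicate 1 and 3 without wildtype replicate 2, wildtype replicate 3, MYCN+/SNRPD3- siRNA #1 replicate 3 or MYCN+/SNRPD3- siRNA #2 replicate 3. Of the introns described above, ZNF160 rose by 31.1 points (1.99 ± 0.29 log2 odds, adjusted p = 0.0119), ZNF836 fell by 9.91 points (adjusted p = 0.0148) and ZNF614 by 73.4 points (adjusted p = 0.0248), all by limma.

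The other 3 calls of that comparison include exons with the start codon. In ZNF227 the intron from exon 2 to exon 4 (chr19:44213244-44228446, plus strand), which leaves out the 62 nucleotides of exon 3 and with them the start codon printed above, had a PSI of 9.15, 10.0 and 9.91% in wildtype. It was 17.6, 14.7 and 15.5% in MYCN-/SNRPD3- siRNA #1, 16.9, 15.8 and 16.3% with siRNA #2, 14.6, 19 and 19.1% in MYCN+/SNRPD3+, 23.2, 16.8 and 24% in MYCN+/SNRPD3- siRNA #1 and 15.5, 16.1 and 24.9% with siRNA #2. All 15 other libraries lay above the 3 wildtype libraries. The joint difference was 10.4 points (1.13 ± 0.19 log2 odds, adjusted p = 0.0260, limma), lost without any 1 wildtype library or without MYCN+/SNRPD3- siRNA #1 replicate 3. Neither MYCN (adjusted p = 0.0683) nor knockdown (adjusted p = 0.318) passed on its own over all libraries by limma.

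ZNF473, a zinc finger protein of the U7 snRNP that processes histone pre-mRNA, is itself close to the splicing machinery under study. Its intron from exon 1 to exon 3 (chr19:50026122-50039161, plus strand) leaves out exon 2, of 200 nucleotides with the start codon near its end. PSI was 2.70, 1.70 and 3.67% in wildtype, 4.18, 4.14 and 8.53% in MYCN-/SNRPD3- siRNA #1, 5.40, 5.12 and 6.06% with siRNA #2, 3.96, 4.18 and 5.58% in MYCN+/SNRPD3+, 11.2, 7.54 and 12% in MYCN+/SNRPD3- siRNA #1 and 8.61, 4.58 and 6.15% with siRNA #2. Wildtype was lowest here too. The joint difference was 5.66 points (1.40 ± 0.27 log2 odds, adjusted p = 0.0392, limma), a call that held in 6 of the 18 fits without 1 library. Over all libraries knockdown differed by 0.82 ± 0.19 log2 odds, which was not called (adjusted p = 0.231, limma). The last of the 6 calls was a fall at an unannotated intron of ZNF773 that shares its sites with another gene (chr19:57506593-57513022, plus strand). The joint difference (adjusted p = 0.0376, limma) was called in 5 of the 18 fits without 1 library. This intron differed between the siRNAs by value. Its PSI was under 0.1% in all 6 libraries with siRNA #2 and 1.90 to 4.34% in the 6 with siRNA #1, and the difference between siRNAs was not called (-1.96 ± 0.32 log2 odds, adjusted p = 0.124, limma).

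SNRPD3 knockdown over all libraries (12 SNRPD3- against 6 control siRNA) called 0 ZNF introns by limma, where 0.0242% of all tested introns were called. At an unadjusted p under 0.05, 184 ZNF introns of 97 genes (9.65%, against 7.8% of all) were counted, 100 of them higher on knockdown (5.24%, against 4.15%). With MYCN repressed 0 were called (0.0138% of all) and 7.18% had an unadjusted p under 0.05 (4.69% of all), and with MYCN expressed the latter share was 7.76% (7.06% of all). No test compared these shares. The interaction of knockdown and MYCN called 0 ZNF introns (0.0177% of all), with 5.51% under the unadjusted threshold (3.98% of all). The comparison of siRNA #2 with #1 called 0 as well (0.0183% of all), with 6.55% under it (5.38% of all).

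The ZNF intron with the smallest knockdown p after that of ZNF302 (adjusted p = 0.127, limma) skips exon 4 of ZNF283, which holds the start codon (chr19:43831381-43835505, plus strand). PSI was 8.20, 5.36 and 10.5% in wildtype and 10.2, 11.7 and 8.45% in MYCN+/SNRPD3+. On knockdown it was 14, 13 and 11.9% (siRNA #1) and 13, 20.1 and 15.7% (siRNA #2) with MYCN repressed, and 14.8, 17 and 13% and 14.3, 10.1 and 15.2% with MYCN expressed. Control libraries (5.36 to 11.7%) and knockdown libraries (10.1 to 20.1%) overlapped slightly. The difference was 5.28 points (0.71 ± 0.16 log2 odds, adjusted p = 0.218, limma).

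For the other comparisons without 2 calls, the introns with the smallest p are given by value. In ZNF225 an annotated acceptor beyond exon 4 (chr19:44118574-44129042) was at 0.0484 to 0.0875% in wildtype, 3.46 to 8.23% in the 6 MYCN-/SNRPD3- libraries and 2.15 to 4.77% in MYCN+/SNRPD3+, while 4 of the 6 MYCN+/SNRPD3- libraries were under 0.1%. Knockdown thus differed by 2.52 ± 0.49 log2 odds with MYCN repressed (adjusted p = 0.296) and by -1.33 ± 0.49 with MYCN expressed (adjusted p = 0.575), and the interaction was -3.85 ± 0.70 (adjusted p = 0.296), all by limma. In ZNF440 an unannotated acceptor (chr19:11826687, plus strand) differed in interaction by -2.05 ± 0.40 log2 odds (adjusted p = 0.450, limma). In ZNF761 an unannotated intron from exon 1 to exon 3 differed on knockdown with MYCN expressed by 0.84 ± 0.20 log2 odds (adjusted p = 0.298, limma). In ZNF875 the intron that skips the KRAB exon 3 was at 1.24 to 3.11% with siRNA #1 and 0.388 to 0.693% with siRNA #2, without overlap (-0.95 ± 0.20 log2 odds, adjusted p = 0.366, limma).

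ZNF proteins with a described role were looked up whatever their values, each by its intron with the smallest knockdown p. ZNF274, which brings SETDB1 to the 3′ ends of ZNF genes, differed by 0.97 ± 0.36 log2 odds at an intron that skips exon 6 (adjusted p = 0.499). ZNF91 and ZNF93, which repress SVA and LINE-1 elements, differed by -0.49 ± 0.15 and -0.21 ± 0.11 log2 odds at the introns into their finger exons (adjusted p = 0.378 and 0.731). ZNF420, a partner of p53, differed by 0.37 ± 0.11 (adjusted p = 0.347) and ZNF350, a partner of BRCA1, by -0.64 ± 0.24 (adjusted p = 0.487). ZNF568, ZNF331, ZNF432 and ZNF224 had adjusted p-values of 0.425, 0.889, 0.882 and 0.916, and ZNF536 had no tested intron. By limma, 0 of these introns was called.

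Skipping was next measured exon by exon, since single introns divide a cluster among many rows. For each cassette exon, an annotated exon with both flanking introns and the skipping intron annotated in 1 cluster, the skipping share was the PSI of the skipping intron divided by itself plus the average PSI of both flanking introns. The ZNF genes held 225 such combinations of an exon with its skipping intron, in 116 genes. An exon with more than 1 skipping intron counts more than once, here and in all counts of cassette exons below. Their mean skipping share was 42.6 ± 1.03% (SD, n = 3) in wildtype, 46.8 ± 0.909% in MYCN-/SNRPD3- siRNA #1 and 45.8 ± 0.792% with siRNA #2. With MYCN on it was 44.8 ± 0.408% with control siRNA, 49.6 ± 2.83% with siRNA #1 and 46.4 ± 2.02% with siRNA #2. With MYCN repressed the 6 knockdown libraries (45.2 to 47.8%) lay above the 3 wildtype libraries (41.5 to 43.6%). With MYCN expressed the 3 control libraries (44.4 to 45.2%) and the 6 knockdown libraries (45.1 to 52.9%) met at the edge.

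The mean share was 3.47 percentage points higher on knockdown, and 172 of the 225 exons were higher (76.4%), with a median of 2.93 points. All genes moved in the same direction by less. Over their 11999 cassette exons the mean was 1.94 points higher, 73.4% of exons were higher and the median was 1.31 points, and over 508 exons of other chromosome 19 genes the values were 1.85 points, 70.3% and 1.02 points. With MYCN repressed the mean difference was 3.66 points in the ZNF genes and 1.48 in all genes, and with MYCN expressed 3.27 and 2.39. Replicate 3 of MYCN+/SNRPD3- siRNA #1 stood apart, at 52.9% in the ZNF genes and 46.4% in all genes, and without it the knockdown differences were 3.06 and 1.68 points. These are descriptions, since exons of 1 gene or cluster are not independent and the set was chosen with earlier results known.

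**Figure D3:**
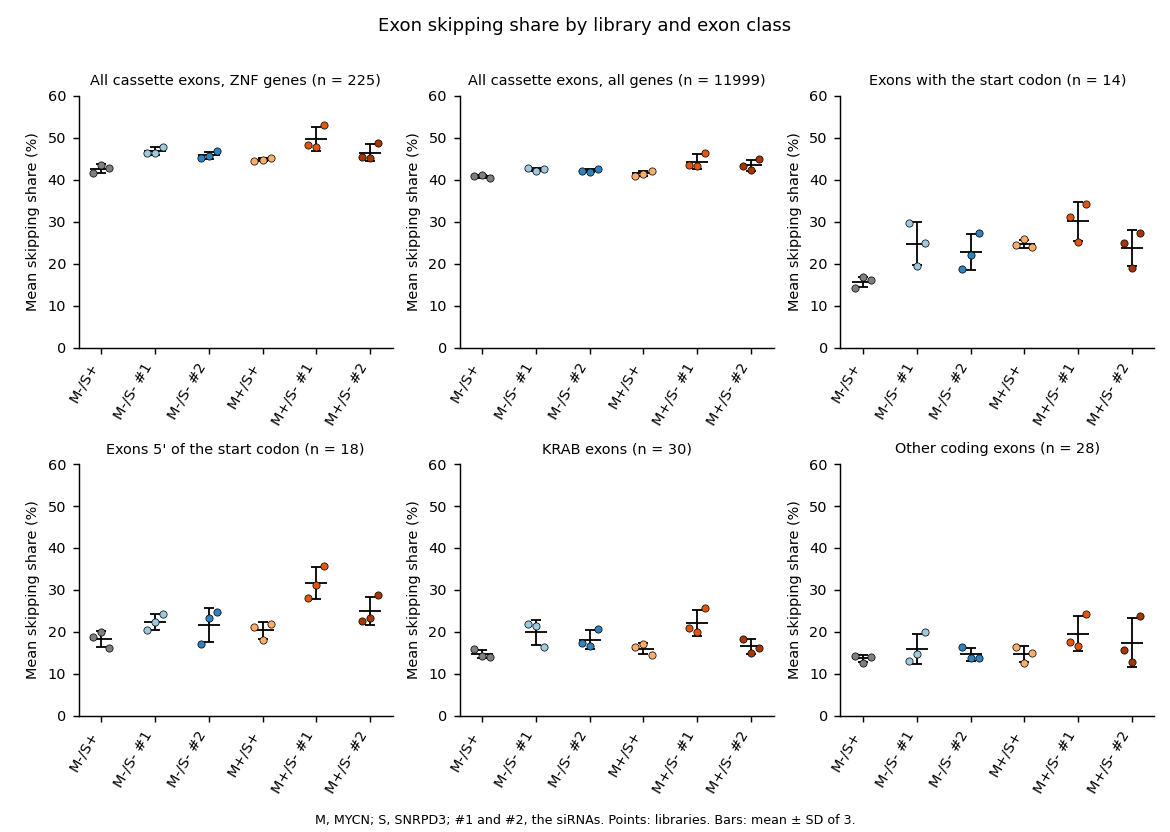
Mean skipping share (%) of cassette exons by library (points), with the mean ± SD of the 3 libraries of each group (bars), for all cassette exons of the chromosome 19 ZNF genes, all cassette exons of all genes, and 4 classes of ZNF exons by their place in the canonical transcript. The start codon class is at 15.6% in wildtype and between 22.7 and 30.1% in the other 5 groups, while all genes stay between 40.8 and 44.3%.

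The exons with the start codon showed the largest median difference among the classes. By the mean, the exons upstream of the start codon differed more on knockdown (5.82 against 5.11 points). The 14 exons of 14 genes had a mean skipping share of 15.6 ± 1.26% in wildtype, 24.7 ± 5.12% and 22.7 ± 4.27% in MYCN-/SNRPD3- siRNA #1 and #2, 24.7 ± 0.957% in MYCN+/SNRPD3+ and 30.1 ± 4.61% and 23.6 ± 4.24% in MYCN+/SNRPD3- siRNA #1 and #2. All 15 other libraries (18.7 to 34.2%) lay above the wildtype libraries (14.3 to 16.7%). On knockdown 12 of the 14 were higher (85.7%, against 73.4% over all genes), with a median of 5.87 points. Here and for the classes below, the 73.4% covers cassette exons of every kind, since the classes were not taken in other genes. The mean knockdown difference was 8.06 points with MYCN repressed and 2.16 with MYCN expressed, and MYCN+ groups were 5.13 points above MYCN- groups. With MYCN expressed, the siRNA #2 group (23.6%) was below its control (24.7%) and the siRNA #1 group (30.1%) above it.

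ZNF283 led the class. Skipping of its exon 4 had a share of 47.2% in wildtype, 65.1 and 69.5% in MYCN-/SNRPD3- siRNA #1 and #2, 56.8% in MYCN+/SNRPD3+ and 69.4 and 69.5% in MYCN+/SNRPD3- (group means). Its 6 control libraries (35 to 60.2%) and 12 knockdown libraries (63.6 to 79.2%) did not overlap. ZNF613, ZNF573, ZNF615, ZNF227, ZNF473 and ZNF567 were higher by 9.0, 8.1, 7.4, 7.0, 6.5 and 5.9 points, with overlapping libraries in each. The exons that were not higher were those of ZNF134, lower by 0.2 points, and ZNF546, lower by 7.1 points, where the control libraries alone ran from 1.1 to 66.0%. These exons were chosen for description after their values were seen.

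Exons upstream of the start codon, in the leader of the mRNA, also had higher skipping shares on knockdown. In 18 exons of 17 genes the share was 18.3 ± 1.94% in wildtype and 20.4 ± 2.02% in MYCN+/SNRPD3+, and between 21.7 and 31.6% in the 4 knockdown groups. Here 16 of 18 were higher on knockdown (88.9%, against 73.4% over all genes), with a median of 5.29 points. The mean knockdown difference was 3.73 points with MYCN repressed and 7.90 with MYCN expressed, the reverse order of the start codon class. Other coding exons were higher in 20 of 28 (71.4%), with a median of 2.56 points. Exons outside the canonical transcript are skipped more often than not (60.9% in wildtype). They were higher in 99 of 135 (73.3%), with a median of 2.60 points. Both shares are close to the 73.4% over the cassette exons of all genes, where the median was 1.31 points.

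The KRAB exon was skipped in a minority of transcripts in most genes. Over 30 cassettes of 27 genes its skipping share was 14.7 ± 1.03% in wildtype, 19.9 ± 3.02% and 18.2 ± 2.20% in MYCN-/SNRPD3- siRNA #1 and #2, 16 ± 1.37% in MYCN+/SNRPD3+, and 22.2 ± 3.14% and 16.6 ± 1.71% in MYCN+/SNRPD3- siRNA #1 and #2. On knockdown 25 of 30 were higher (83.3%, against 73.4% over all genes), with a median of 2.89 points and a mean of 3.84. The group with siRNA #2 and MYCN on was within 1 SD of its control. The MYCN difference was 0.655 points.

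The largest differences belonged to the exons printed at the start. Skipping of ZNF765 exon 3 had a share of 5.2% in wildtype, 21.5 and 29.3% in MYCN-/SNRPD3- siRNA #1 and #2, 14.3% in MYCN+/SNRPD3+ and 22.8 and 13.6% in MYCN+/SNRPD3-. Its control libraries ran from 0.2 to 42.1% around a median of 0.4%, and its knockdown libraries from 11.9 to 38.4% around a median of 22.6%, so that 2 of the 6 control libraries lay above the lowest knockdown library. ZNF442 exon 4 was skipped in most transcripts, at 66.4% in wildtype, 82.9 and 79.6% in MYCN-/SNRPD3-, 54.7% in MYCN+/SNRPD3+ and 73.6 and 52.3% in MYCN+/SNRPD3-, 11.6 points higher on knockdown with wide overlap. ZNF749 exon 2 was 8.0 points higher, from 22.2% in wildtype to between 26.6 and 37.6% on knockdown. None of these differences was tested as a share, and 0 of their introns was called by limma on knockdown over all libraries.

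**Figure D4:**
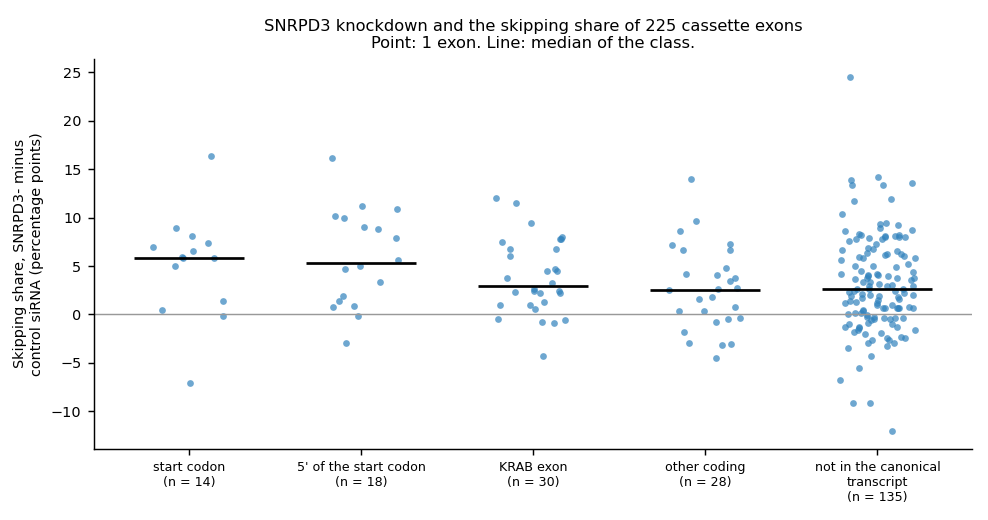
Difference in skipping share between SNRPD3- and control siRNA groups, in percentage points. Points are the 225 combinations of a cassette exon with its skipping intron in chromosome 19 ZNF genes, by class, with the class median (line). The medians lie between 2.56 and 5.87 points, above 0 in each class, with single exons on both sides of 0.

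The use of unannotated introns, some of which join annotated splice sites, was not higher on knockdown in these genes. Unannotated introns held 8.93 ± 0.151% of the summed PSI of the ZNF introns in wildtype and between 8.31 and 8.54% in the other 5 groups. The knockdown difference was -0.335 points, about the SD between replicates of 0.333 points. Over all tested introns the group means were between 12.5 and 12.9%, but these include introns with no annotated end, which the ZNF set cannot hold. In other genes of chromosome 19, which also need an annotated end, the group means were between 4.79 and 5.52%.

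The partners through which KRAB zinc finger proteins silence chromatin were described as a list of 25 genes, 23 of them with tested introns (337 in all, and a gene with more introns has more chances of a call). With MYCN over all libraries 6 of the 23 had a called intron (SETDB1, CBX3, CBX5, PPHLN1, CHD3 and HDAC1), where 8.59% of all genes had one. With MYCN plus knockdown 2 of 23 had one (TASOR and CHD3, against 4.51% of all genes), and 0 of 23 in the other 6 comparisons (0.113 to 0.387% of all genes, at an adjusted p of 0.05 by limma). TRIM28, the common partner, was among the genes without a tested intron.

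CBX5, the gene of HP1 alpha, gave the clearest of these. An intron at chr12:54257692-54259270 had a mean PSI of 2.95% in wildtype, 3.60 and 1.96% in MYCN-/SNRPD3- siRNA #1 and #2, 6.81% in MYCN+/SNRPD3+ and 5.80 and 5.47% in MYCN+/SNRPD3-. All 9 MYCN+ libraries lay above all 9 MYCN- libraries (0.93 ± 0.11 log2 odds, adjusted p = 0.00112, limma). In SETDB1, the methyltransferase, the main intron of a cluster fell by 0.84 ± 0.17 log2 odds with MYCN (adjusted p = 0.0328, limma). PPHLN1, a HUSH complex subunit, fell by 0.47 ± 0.09 at its most changed intron (adjusted p = 0.0161, limma) and CHD3, a NuRD remodeller, by 0.72 ± 0.09 (adjusted p = 0.00227, limma). TASOR, another HUSH subunit, used an unannotated intron more in MYCN+/SNRPD3- cells than in wildtype (1.05 ± 0.19 log2 odds, adjusted p = 0.0288, limma), at a mean PSI of at most 2.74%.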

How the data were processed

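Polyadenylated RNA of 18 SHEP.tet21n libraries was sequenced as stranded 100-base pairs. Per the submitters' processing notes and the methods, alignment to hg38 used STAR 2.5.0a, with SAMtools 1.3.1 also named, and leafcutter was run by the authors with an earlier GENCODE release. The deposited PSI is a fraction per intron, cluster and library, with 0 columns left unmatched to a library. Deposited FDR and delta PSI columns hold the authors' own comparisons and were not used. Intron coordinates are those of the files, the last base of the left exon and the first base of the right one.

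Introns were placed on GENCODE 44, and exons were numbered along Ensembl canonical transcripts. All 152722 introns with a mean PSI of 0.01 to 0.99 were fitted as log2((PSI + 0.01)/(1 - PSI + 0.01)) with limma 3.58.1 (R 4.3.3), 6 groups in 1 fit, with Benjamini-Hochberg adjustment within each of 8 comparisons. The fit was tested on simulated data with 200 introns shifted on knockdown. It called 24.5% of those shifted by 1 log2 odds, 55.5% at 2 and 75.5% at 4. An intron that was not called may thus still have changed. Tables and plots used Python 3.11.15, pandas 2.3.3, numpy 2.4.6 and matplotlib 3.10.9.

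Members and gene lists were chosen with earlier results of these data known. Named introns are the 4 called introns with the largest PSI difference per comparison, 1 per gene, or the 2 with the smallest p where fewer than 2 were called, the intron with the smallest knockdown p in the ZNF genes with a described role, and the 3 KRAB cassette exons with the largest knockdown difference. Other names were chosen after values were seen and are given as such. Alternatives were a replicate block, offsets of 0.001 and 0.05, untransformed PSI, other or no limits on mean PSI, introns with 18 different values, trend and robust options, only the groups compared, and leaving out each library. The sequence of 1 exon is not reported here.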

Additional observations from a re-analysis of the deposited data

How the results depend on the processing

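Counts of called ZNF introns moved as follows. With an offset of 0.001, 1 intron instead of 0 was called for knockdown over all libraries, for the interaction and for siRNA #2 against #1. With only the groups compared in the fit, MYCN with control siRNA gave 11 instead of 1, without the ZNF302 intron called otherwise, knockdown with MYCN repressed 1 instead of 0, knockdown with MYCN expressed 2 instead of 1 and siRNA #2 against #1 gave 1 instead of 0. With an offset of 0.05, MYCN with control siRNA and knockdown with MYCN expressed gave 0, and the latter gave 0 also on untransformed PSI, with a mean PSI of 0.05 to 0.95 and with trend and robust options. Restricted to introns with 18 different values, MYCN plus knockdown gave 11 instead of 6. The cause of these changes was not tested. ZNF224 changed sign, to a PSI difference of 0.00106 on the untransformed fraction, and was called under neither.

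Replicate numbers did not pair the libraries. Deviations of libraries with the same number correlated between -0.051 and 0.064 over 45 pairs, with 0 pairs over 0.1. With the replicate number as a block, MYCN plus knockdown gave 14 introns and knockdown with MYCN expressed 0, and the other counts stayed within 1.5 times.

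Without 1 library at a time, counts ran from 0 to 0 for knockdown over all libraries, 7 to 17 for MYCN over all libraries, 0 to 2 for MYCN with control siRNA, 0 to 1 for knockdown with MYCN repressed and with MYCN expressed, 0 to 8 for MYCN plus knockdown, and 0 to 2 for the interaction and for siRNA #2 against #1. The knockdown difference in skipping share ran from 3.06 to 3.71 points and that in the unannotated share from -0.397 to -0.252 points. Depth is unknown, so introns of low PSI or few reads could not be set apart.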
